A study of Mus musculus with 20 samples.

Results

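Genes of fatty acid synthesis and oxidation were examined in the intervertebral disc of aged mice. The 10 genes were taken from a deposited table of 51789 genes by their symbols: Srebf1, Fasn, Acaca, Acly, Scd1, Scd2, Elovl6, Cpt1a, Cpt2 and Acadm. RNA came from BL6 mice aged 24 months, from 2 compartments of the disc: its gel-like centre, the nucleus pulposus (NP), and the collagen-rich annulus fibrosus (AF) that encloses it. From 18 months of age, for 6 months, the animals had received intraperitoneal injections of DMSO alone (vehicle) or of MDL-800 dissolved in DMSO, so that both arms carried the solvent. MDL-800 is a small-molecule activator of SIRT6, a chromatin deacylase whose activation in the ageing disc is the subject of the series. Each tissue and treatment is a group of 5 libraries, 20 libraries in 4 groups. The sample titles speak of cells, whereas the protocol describes tissue dissected under a microscope, so each library is a bulk tissue sample. Nothing in the labels says whether each library is a separate mouse, and p-values measure the spread between these libraries.

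Fatty acid synthesis starts when ATP citrate lyase (Acly) makes cytosolic acetyl-CoA, which acetyl-CoA carboxylase (Acaca) turns into malonyl-CoA and fatty acid synthase (Fasn) builds into palmitate. Elovl6 lengthens palmitate to stearate, and the stearoyl-CoA desaturases Scd1 and Scd2 introduce a double bond. Srebf1 encodes the transcription factor SREBP-1, which drives many of these genes in liver and fat. In oxidation, Cpt1a and Cpt2 carry long-chain acyl groups into mitochondria through the carnitine shuttle, Cpt1a being inhibited by malonyl-CoA, and Acadm is the medium-chain acyl-CoA dehydrogenase. The NP of an adult disc has no blood supply of its own, whereas the outer AF lies against vertebral bone, muscle and vessels.

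The genes lie on few chromosomes of the mm10 build. Srebf1 (chr11:60199089-60222581, minus strand), Acaca (chr11:84129672-84401651, plus), Acly (chr11:100476353-100528000, minus) and Fasn (chr11:120805846-120824547, minus) are on chromosome 11. Scd1 (chr19:44394455-44407879, minus) and Scd2 (chr19:44293674-44306864, plus) are neighbours on chromosome 19, as related copies of the same enzyme, and Cpt1a (chr19:3322334-3385733, plus) is on the same chromosome. Srebf1 overlaps Rai1 on the opposite strand. The libraries were stranded, but whether the counting used strand is not given in the sources used here, so reads of that overlap may not be assigned with certainty, and reads shared by Scd1 and Scd2 may likewise have been split between them.

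Start regions of Srebf1 and Fasn are shown because, of all member pairs, these had the highest positive correlation within groups (r = 0.71), and because Srebf1 has several listed starts that the table does not separate: it holds 1 value per gene. The sequences are the 250 bases before each start in RefSeq (GRCm38.p6), all on the minus strand, 5′ to 3′. Capitals mark matches on either strand to the CCAAT box (CCAAT, the recognition letters of NF-Y, a partner of SREBP) and the GC box (GGGCGG, bound by Sp1).
Srebf1, chr11:60222582-60222831: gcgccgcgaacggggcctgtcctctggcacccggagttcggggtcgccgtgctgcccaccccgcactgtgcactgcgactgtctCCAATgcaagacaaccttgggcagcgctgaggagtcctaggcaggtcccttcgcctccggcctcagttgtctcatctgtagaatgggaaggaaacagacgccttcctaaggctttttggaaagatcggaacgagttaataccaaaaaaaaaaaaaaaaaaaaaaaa
Srebf1, chr11:60220628-60220877: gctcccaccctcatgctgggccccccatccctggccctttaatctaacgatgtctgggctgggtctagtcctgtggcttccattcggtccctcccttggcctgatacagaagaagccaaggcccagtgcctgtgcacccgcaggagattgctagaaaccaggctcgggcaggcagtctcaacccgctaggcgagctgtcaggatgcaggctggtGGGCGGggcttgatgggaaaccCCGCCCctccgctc
Srebf1, chr11:60210472-60210721: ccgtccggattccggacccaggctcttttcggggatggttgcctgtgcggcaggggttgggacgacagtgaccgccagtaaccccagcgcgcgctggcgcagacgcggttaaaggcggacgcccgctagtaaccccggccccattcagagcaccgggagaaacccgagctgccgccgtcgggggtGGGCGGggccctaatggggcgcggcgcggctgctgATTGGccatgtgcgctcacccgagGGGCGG
Fasn, chr11:120824548-120824797: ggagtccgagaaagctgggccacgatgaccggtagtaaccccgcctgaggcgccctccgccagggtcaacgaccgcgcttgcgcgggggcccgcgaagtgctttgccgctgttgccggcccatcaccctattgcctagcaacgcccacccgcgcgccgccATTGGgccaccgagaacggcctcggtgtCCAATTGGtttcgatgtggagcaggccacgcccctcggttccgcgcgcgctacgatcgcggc
The Fasn window held 3 CCAAT matches, of which a pair overlap on opposite strands in CCAATTGG, and the Srebf1 windows held 1, 2 and 3 matches of either motif. RefSeq start windows were at hand for 8 of the 10 genes, 10 windows in all, not for Scd1 and Scd2. The windows of Acaca and Cpt1a lie inside the gene as GENCODE annotates it, downstream of its first listed base, so they cover a later start. The same holds for the Srebf1 windows chr11:60220628-60220877 and chr11:60210472-60210721. The sterol regulatory element, its core and the E-box were each searched as a fixed string of letters, with no mismatch allowed. Sites that vary from these letters were not searched for, so the next result does not show that the windows lack sites for SREBP. None of the 10 windows held the sterol regulatory element, its core CACCCCAC, the E-box CACGTG or a direct repeat 1 of the nuclear receptor half-site, all searched on both strands. Among 32851 start windows of the same length in the table, 33.8% held CCAAT, 32.7% GGGCGG, 2.58% CACCCCAC, 6.02% CACGTG, 0.0731% the sterol regulatory element and 0.0335% the direct repeat.

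Values are FPKM (fragments per kilobase of transcript, relative to the mapped fragments of the library), a length-corrected level, after division by a factor per library (0.933 to 1.06). Tests used limma on log2(scaled FPKM + 1), and fold changes on that scale understate the change of low genes. A gene is called when its Benjamini-Hochberg adjusted p over 16383 genes is below 0.05. All 10 genes passed the filter of 1 FPKM in at least 5 of 20 libraries, Elovl6 only through its AF libraries. Depth, estimated from the steps between low values, was between 12.6 and 22.4 megareads per library, which puts about 34 reads on Elovl6 in its lowest library and at least about 347 on every other member.

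The libraries matched their tissue labels in most markers: 9 of 10 tested NP markers were higher in NP in vehicle mice and 8 of 10 in MDL-800 mice by limma, among them Krt8, Krt19 and T, while the carbonic anhydrase gene Car12 was lower in both. AF markers such as Tnmd, Lum and Col1a1 were lower in NP, 8 of 9 in vehicle and 7 of 9 in MDL-800 mice. The summed level of NP markers was 25900 to 33000 in NP libraries and 2520 to 15200 in AF libraries, AF vehicle library 9 being the highest. Markers of other cells were also higher in AF. The 12 fat cell markers summed to 23 to 59.5 in NP and 227 to 1130 in AF, and 10 of 12 were lower in NP in each treatment arm. Adipoq was 0.178 to 3.28 in NP and 24.6 to 117 in AF. The 12 skeletal muscle markers, all lower in NP, summed to 12.8 to 1510 in NP and 1010 to 11100 in AF. Every tested marker of red blood cells (8), neutrophils (8), macrophages (8), bone (7) and endothelium (7), and 8 of 9 Schwann cell markers, was lower in NP in both arms. Over all genes tested, 21.8% were called higher and 33.9% lower in NP in vehicle mice, and 25.6% and 37.2% in MDL-800 mice. The 7 endothelial markers summed to only 0.878 to 6.63 in NP, beside 44.6 to 101 in AF. Markers below 1 FPKM in NP passed the filter only through AF, so their calls are not independent of the filter. No marker was listed at 0 in all libraries of a group. Their part in the tissue differences below was not tested beyond the values given, and in bulk tissue fewer cells of a type and less RNA per cell cannot be told apart.

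In vehicle mice, NP had more Srebf1 and Scd2 than AF and less Acly, Scd1, Elovl6 and Cpt1a, while Fasn, Acaca, Cpt2 and Acadm were not called. That is 6 of 10 genes, 2 higher and 4 lower, beside 55.7% of all genes tested (21.8% higher and 33.9% lower), so the share of called members was near the background. The direction of the background turned with scaling: with quantile normalization 6474 genes were higher and 3923 lower in vehicle mice, in place of 3577 and 5550, and 6919 and 4290 in MDL-800 mice, in place of 4188 and 6102. Of the members, 2 were then higher and 3 lower in vehicle mice, and 3 and 3 in MDL-800 mice. Groups did not overlap for 5 of 10, beside 41.0% of all genes. In MDL-800 mice, 6 of 10 were again called, 2 higher and 4 lower, beside 62.8% of all genes (25.6% higher and 37.2% lower), and groups did not overlap for 5, beside 49.1%. The members called in the same direction in both arms were 5: Srebf1 and Scd2 higher, Acly, Elovl6 and Cpt1a lower, which is 83.3% of the calls of each arm. The matching share over all genes tested was not computed, so 83.3% has no background to be read against. The arms share no libraries. The median member differed by -0.31 (log2, NP minus AF) in vehicle and -0.26 in MDL-800 mice, beside -0.08 for all genes in each.

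**Figure D1:**
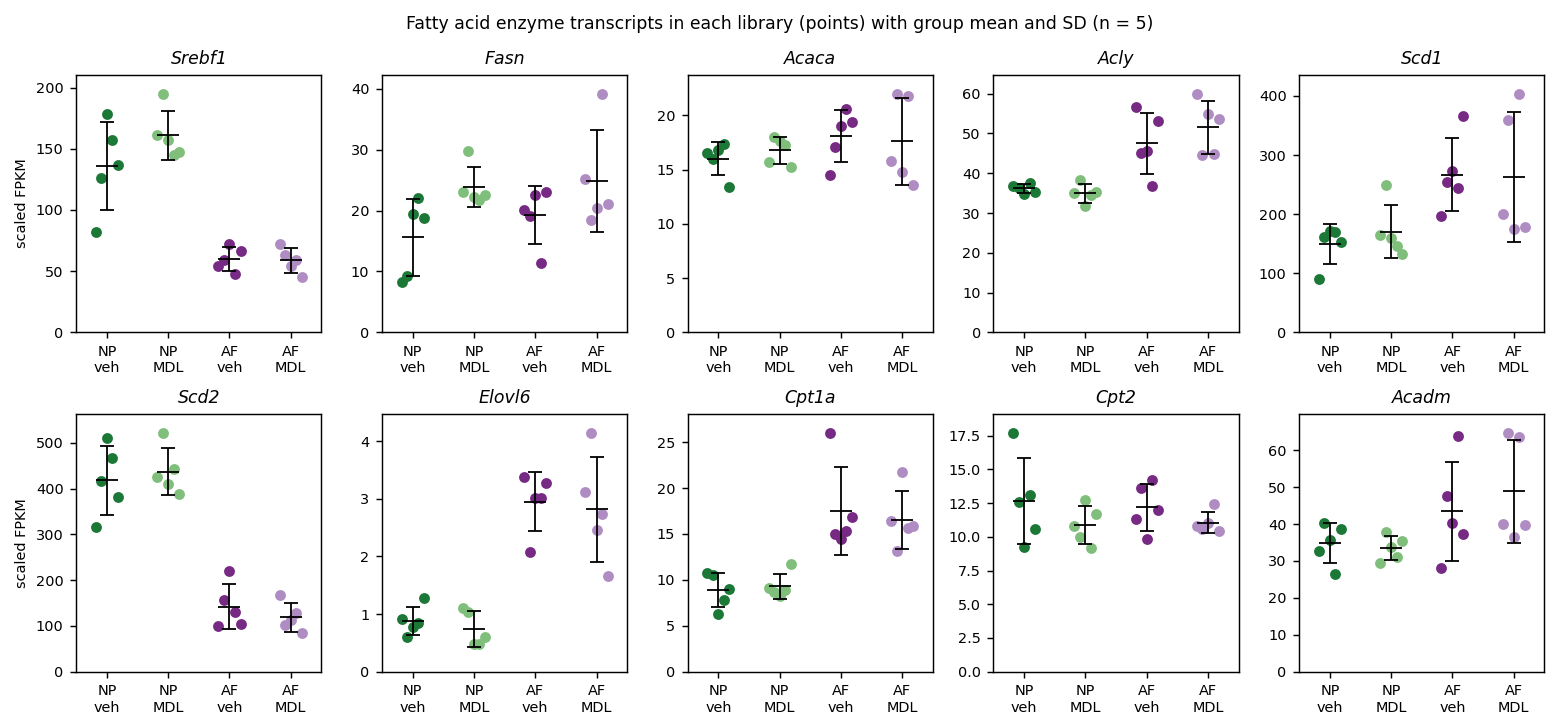
Scaled FPKM (vertical axis, linear, from 0) of the 10 genes in each of 20 libraries, by group (veh, vehicle; MDL, MDL-800); points are libraries, bars the mean and SD of 5. Srebf1 and Scd2 are higher in all NP than in all AF libraries, Elovl6 and Cpt1a lower, and the NP vehicle group holds 2 low Fasn values.

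Srebf1, the regulator, had among the highest levels of the set, above 96.6% of tested genes in NP vehicle. NP vehicle libraries 1, 2, 3, 5 and 6 had 82.1, 126, 178, 157 and 137 scaled FPKM, and AF vehicle libraries 8, 9, 10, 12 and 13 had 54.5, 59.2, 72.3, 47.7 and 66.3. NP MDL-800 libraries 15, 18, 19, 20 and 22 had 161, 195, 157, 145 and 147, and AF MDL-800 libraries 25, 27, 28, 29 and 30 had 72.5, 63.1, 54.6, 58.8 and 45.2. Every NP library was above every AF library, although NP vehicle library 1 came near the AF range. The group means were 136 ± 36.2 in NP vehicle, 161 ± 20.0 in NP MDL-800, 60.0 ± 9.65 in AF vehicle and 58.8 ± 10.1 in AF MDL-800 (SD, n = 5 each). NP exceeded AF by 1.14 on the log2 scale in vehicle mice (2.20-fold, SE 0.20, limma adjusted p = 0.000621) and by 1.44 in MDL-800 mice (2.72-fold, SE 0.13, limma adjusted p = 6.55e-06).

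None of the enzymes that make palmitate was called higher in NP, as Srebf1 was. Acly was lower in NP: libraries 1, 2, 3, 5 and 6 of NP vehicle had 36.8, 36.3, 34.9, 37.5 and 35.3, and AF vehicle libraries 8, 9, 10, 12 and 13 had 56.7, 45.2, 45.6, 36.9 and 53.0. The NP values were tightly grouped, and AF library 12 alone fell among them. The difference was -0.37 (1.29-fold lower, limma adjusted p = 0.0159), and it was no longer called with quantile normalization (-0.28, limma adjusted p = 0.0565), TPM (-0.29, 0.0626) or removal of the GC trend (-0.21, 0.0895). In MDL-800 mice NP had 31.7 to 38.3 and AF 44.5 to 60.0, without overlap, and the difference was -0.54 (1.46-fold lower, limma adjusted p = 0.000703).

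Acaca was not called in either arm, and its AF MDL-800 libraries, at 13.6 to 22.0, were the most spread. Its means were 16.0 ± 1.55 in NP vehicle, 16.8 ± 1.22 in NP MDL-800, 18.1 ± 2.39 in AF vehicle and 17.6 ± 4.02 in AF MDL-800 (SD, n = 5 each). The tissue difference was -0.16 in vehicle mice (95% interval -0.41 to 0.09, limma adjusted p = 0.256) and -0.04 in MDL-800 mice (-0.35 to 0.27, 0.812).

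Fasn also overlapped between tissues. NP vehicle libraries 1, 2, 3, 5 and 6 had 8.30, 9.33, 19.5, 22.0 and 18.8, and AF vehicle libraries 8, 9, 10, 12 and 13 had 20.1, 19.1, 22.6, 11.4 and 23.1. In each group most libraries lay near 20, with libraries 1 and 2 of NP and 12 of AF below them. The tissue difference was -0.35 in vehicle mice (95% interval -0.98 to 0.29, limma adjusted p = 0.332) and -0.02 in MDL-800 mice (-0.42 to 0.39, 0.948). The 3 low libraries are also those whose levels fall most steeply with the GC content of genes, with slopes of -0.28, -0.28 and -0.24 (log2 per 10 GC points) beside -0.11 to 0.14 in the other 17 libraries. Fasn has 57.9% GC and Srebf1 58.4%, beside a median of 49.3% over tested genes.

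Elovl6 had the lowest level of the set and a tissue difference in both arms. NP vehicle libraries 1, 2, 3, 5 and 6 had 0.911, 0.598, 0.769, 0.838 and 1.27, and AF vehicle libraries 8, 9, 10, 12 and 13 had 3.37, 2.07, 3.02, 3.02 and 3.27. All AF libraries were above all NP libraries, here and in MDL-800 mice (0.474 to 1.11 in NP, 1.66 to 4.14 in AF). The difference was -1.07 in vehicle (2.10-fold lower, SE 0.14, limma adjusted p = 0.000109) and -1.12 in MDL-800 mice (2.17-fold lower, SE 0.19, limma adjusted p = 0.000364). At these levels the pseudocount of 1 shrinks the fold. Elovl6 passed the filter only through AF, the tissue where it was higher, so its tissue calls are not independent of the filter.

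The desaturases differed between tissues in opposite directions. Scd2, the most abundant member in NP, had 316, 416, 511, 467 and 382 in NP vehicle libraries 1, 2, 3, 5 and 6, and 99.5, 156, 220, 131 and 104 in AF vehicle libraries 8, 9, 10, 12 and 13. In MDL-800 mice the NP libraries had 388 to 522 and the AF libraries 83.6 to 167. NP lay wholly above AF in each arm, by 1.60 in vehicle (3.02-fold, SE 0.22, limma adjusted p = 0.000146) and 1.91 in MDL-800 mice (3.75-fold, SE 0.17, limma adjusted p = 5.97e-06).

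Scd1, the main desaturase of fat and liver, led in AF. It had 90.2, 162, 172, 170 and 153 in NP vehicle libraries 1, 2, 3, 5 and 6, and 197, 254, 273, 245 and 366 in AF vehicle libraries 8, 9, 10, 12 and 13. These groups did not overlap, and NP was lower by 0.84 on the log2 scale (-0.84, 1.79-fold, SE 0.21, limma adjusted p = 0.0054). In MDL-800 mice NP had 165, 249, 159, 147 and 133, and AF libraries 25, 27, 28, 29 and 30 had 200, 360, 175, 404 and 178. NP library 18 fell within the AF range, and the difference of -0.56 was not called (95% interval -1.16 to 0.03, limma adjusted p = 0.0908), though it was without that library (-0.71, 0.0422). The ratio of Scd2 to Scd1 was 2.86 ± 0.407 in NP vehicle, 2.64 ± 0.366 in NP MDL-800, 0.549 ± 0.189 in AF vehicle and 0.509 ± 0.231 in AF MDL-800 (SD, n = 5 each). Scd2 thus exceeded Scd1 in every NP library and lay below it in every AF library. The log2 ratio differed by 2.45 in vehicle and 2.48 in MDL-800 mice (exact permutation test, two-sided p = 0.0079 for each, the smallest this design can give, adjusted p = 0.0238 over 12 ratio comparisons). In vehicle mice Scd2 lay wholly higher and Scd1 wholly lower in NP, so the ratio could not overlap and its test adds no support there. Of the other copies, Scd3 was 0 to 0.101 and Scd4 0.182 to 0.685 over all libraries, and neither passed the filter.

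**Figure D2:**
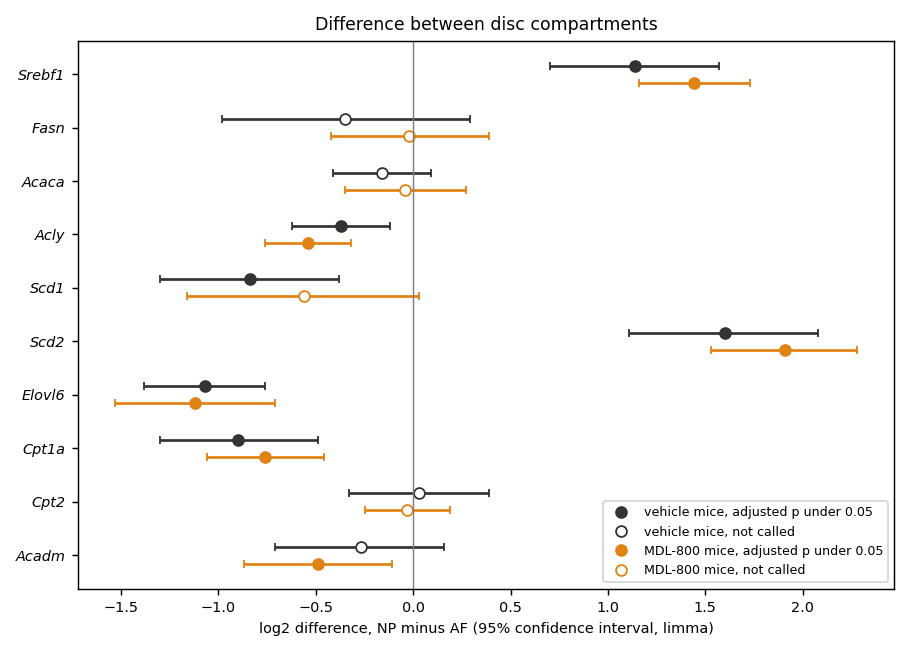
Log2 difference, NP minus AF, of each gene with its 95% confidence interval from limma, in vehicle mice (black) and MDL-800 mice (orange); filled points have an adjusted p below 0.05. Srebf1 and Scd2 lie to the right of 0 in both arms, Acly, Elovl6 and Cpt1a to the left, and the intervals of Fasn, Acaca and Cpt2 cross 0.

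Of the oxidation genes, Cpt1a was lower in NP. NP vehicle libraries 1, 2, 3, 5 and 6 had 10.8, 10.5, 6.31, 7.79 and 8.97, and AF vehicle libraries 8, 9, 10, 12 and 13 had 26.0, 15.0, 14.5, 15.3 and 16.8. In MDL-800 mice NP had 8.21 to 11.7 and AF 13.1 to 21.7. The tissues did not overlap in either arm, and the difference was -0.90 in vehicle (1.86-fold lower, SE 0.18, limma adjusted p = 0.00179) and -0.76 in MDL-800 mice (1.69-fold lower, SE 0.14, limma adjusted p = 0.00059). Cpt2, the inner membrane partner, was not called, with means of 12.7 ± 3.22 in NP vehicle, 10.9 ± 1.41 in NP MDL-800, 12.2 ± 1.74 in AF vehicle and 11.0 ± 0.781 in AF MDL-800 (SD, n = 5 each). Its tissue difference was 0.03 in vehicle (95% interval -0.33 to 0.39, limma adjusted p = 0.886) and -0.03 in MDL-800 mice (-0.25 to 0.19, 0.839). The log2 ratio of Cpt1a to Cpt2 was lower in NP by 1.0 in vehicle (-1.0) and by 0.79 in MDL-800 mice (-0.79), with no overlap (exact permutation p = 0.0079, adjusted p = 0.0238 in each).

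Cpt1b, the muscle form of the outer enzyme, had 6.51 to 11.7 in NP and 3.10 to 21.6 in AF libraries, with AF MDL-800 library 29 and AF vehicle library 12 highest. It was not called (-0.10 in vehicle and 0.08 in MDL-800 mice, limma adjusted p = 0.75 and 0.873). The ratio of Cpt1a to Cpt1b ranged from 0.729 to 5.30 in AF and its difference between tissues was not significant (exact permutation p = 0.127 in vehicle, 0.1984 in MDL-800 mice). The AF library highest in Cpt1b decided this in each arm: the log2 ratio differed by -0.87 in vehicle and -0.95 in MDL-800 mice, by -1.15 without AF vehicle library 12 (exact permutation p = 0.0079) and by -1.33 without AF MDL-800 library 29 (exact permutation p = 0.0397), omissions added after seeing the data and not adjusted over the ratios. Cpt1c, the form of nerve cells, was 2.38 to 3.30 in NP vehicle and 3.48 to 5.88 in AF vehicle, lower in NP by 0.51 (-0.51, limma adjusted p = 0.00859), and was not called in MDL-800 mice (-0.27, limma adjusted p = 0.0854).

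Acadm had 32.8, 40.4, 35.7, 26.5 and 38.8 in NP vehicle libraries 1, 2, 3, 5 and 6, and 28.2, 47.5, 40.3, 64.0 and 37.2 in AF vehicle libraries 8, 9, 10, 12 and 13. NP MDL-800 libraries had 29.5 to 37.8, and AF MDL-800 libraries 25, 27, 28, 29 and 30 had 40.1, 64.7, 36.4, 63.5 and 39.8. The groups overlapped in both arms, and AF libraries 12, 27 and 29 stood above the rest. The difference was -0.27 in vehicle (95% interval -0.71 to 0.16, limma adjusted p = 0.266) and -0.49 in MDL-800 mice (1.41-fold lower, limma adjusted p = 0.0272). The latter call was lost without NP library 15 (-0.45) or 20 (-0.47) or AF library 27 (-0.38) or 29 (-0.39), with limma adjusted p of 0.0558 to 0.064. It was also lost with no filter (-0.49, limma adjusted p = 0.0572), quantile normalization (-0.37, 0.0935) or the GC trend removed (-0.33, 0.105). Of the other acyl-CoA dehydrogenases, the long-chain Acadl was lower in NP (-0.52 and -0.71, limma adjusted p = 0.00537 and 0.000254), whereas very-long-chain Acadvl (-0.22 and -0.20) and short-chain Acads (-0.19 and 0.26) were not called in vehicle or MDL-800 mice.

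Across AF libraries, 4 members varied with fat cell or skeletal muscle marker levels by Pearson correlation. Over the 10 AF libraries, 30 relations were computed, each member against the mean log2 level of fat cell, skeletal muscle and Schwann cell markers, with permutation tests and adjustment over the 30. Red blood cell, neutrophil, macrophage, bone and endothelial markers were not correlated with the members. They vary in AF too: the neutrophil marker mean was lowest in AF vehicle library 12 (8.13) and highest in AF MDL-800 library 30 (10.7). Whether the relations below are particular to fat or muscle markers was therefore not tested. Scd1 rose with fat cell markers (Pearson r = 0.81, adjusted permutation p = 0.0069, Spearman rho = 0.79, adjusted p = 0.0869), and r was 0.83 without the 2 libraries farthest from the median. Acly fell with skeletal muscle markers (r = -0.90, adjusted permutation p = 0.0069, rho = -0.93, adjusted p = 0.0090, r = -0.91 without 2 libraries). Acaca (r = 0.87, adjusted permutation p = 0.0238, rho = 0.84, adjusted p = 0.0615, r = 0.80 without 2 libraries) and Acadm (r = 0.85, adjusted permutation p = 0.0238, rho = 0.76, adjusted p = 0.1147, r = 0.72 without 2 libraries) rose with muscle markers. The rank tests of Scd1, Acaca and Acadm did not pass the adjustment, nor did any of the other 26 relations by either measure. The libraries mix both treatment arms, each with 5 libraries, which is too few for a separate correlation.

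**Figure D3:**
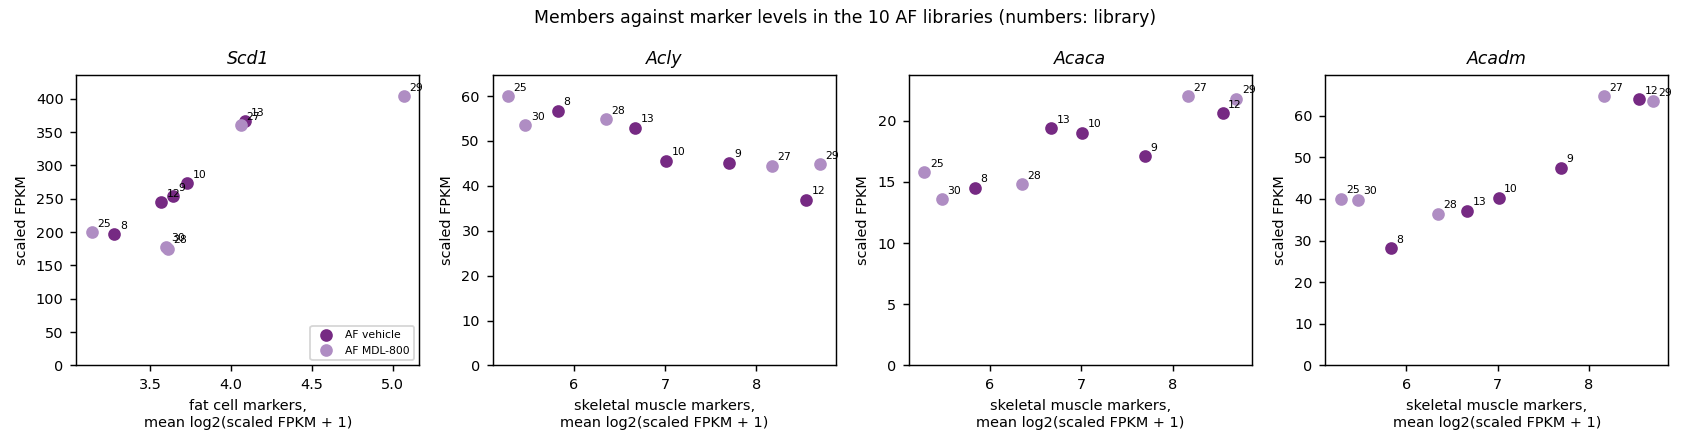
Scaled FPKM of Scd1, Acly, Acaca and Acadm (vertical axes, linear, from 0) against the mean log2(scaled FPKM + 1) of fat cell or skeletal muscle markers in 10 AF libraries (dark, vehicle; light, MDL-800; numbers name libraries). Scd1 climbs with fat cell markers to AF library 29, and Acly descends while Acaca and Acadm climb toward libraries 12, 27 and 29, the richest in muscle markers.

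Other genes of fatty acid metabolism, 95 in 7 lists, differed between tissues in both directions. Of the 89 tested, 15 were higher and 34 lower in NP in vehicle mice, and 22 and 34 in MDL-800 mice. The counts of each list stand beside 21.8% higher and 33.9% lower among all genes in vehicle mice and 25.6% and 37.2% in MDL-800 mice, shares that turn with quantile normalization, and no list was tested against the others. Calls in the same direction in both arms numbered 45, or 91.8% of the vehicle calls and 80.4% of the MDL-800 calls. For these shares too, no value over all genes tested was computed. Markers of fat, muscle and other cells were higher in AF, as given above, beside each of these lists.

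In the list of other synthesis and desaturation genes, 4 of 23 tested were higher in NP and 12 lower in vehicle mice, with 5 and 11 in MDL-800 mice. Me1, malic enzyme, a source of NADPH for synthesis, was 136 ± 20.4 in NP and 47.3 ± 17.8 in AF vehicle (SD, n = 5), a difference of 1.59 (limma adjusted p = 0.000319), and 1.69 in MDL-800 mice. Fads2, the delta-6 desaturase of polyunsaturated fatty acids, was higher by 1.33 and 1.62, Hacd3 by 0.37 in vehicle, and Scap, the escort of SREBP, by 0.98 in MDL-800 mice. Thrsp, a lipogenic protein of fat and liver, was 0.152 ± 0.0882 in NP vehicle and 4.90 ± 2.24 in AF vehicle (-2.28, limma adjusted p = 1.92e-05, and -2.46 in MDL-800 mice). Its NP vehicle level lay below the filter level of 1 FPKM, so Thrsp did not pass the filter through those libraries. It was higher in AF, so its tissue calls, like those of Elovl6, are not independent of the filter. The elongase Elovl5 was lower by 1.52 and 1.47 in NP (-1.52 and -1.47), Mid1ip1, a partner of acetyl-CoA carboxylase, by 1.04 in vehicle (-1.04), and Mlxipl, the carbohydrate-responsive factor ChREBP, by 0.91 in MDL-800 mice (-0.91).

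In triglyceride synthesis, 1 of 8 tested genes was higher in NP and 3 lower in each arm. The acyltransferase Agpat3 was 115 ± 24.7 in NP and 47.7 ± 23.5 in AF vehicle (SD, n = 5) and differed by 1.34 in vehicle and 1.79 in MDL-800 mice (limma adjusted p = 0.00198 and 5.44e-05). Dgat1, which makes triglyceride from diglyceride, differed by -1.03 and -1.12, and Lpin2, a phosphatidate phosphatase, by -0.94 and -1.04, with Dgat2 at -0.78 and -0.69. In uptake and activation, 2 of 12 were higher and 6 lower in each arm. The acyl-CoA synthetase Acsl3 differed by 0.80 and 0.57 and the transport protein Slc27a1 by 0.51 and 0.83, while Acsl5 (-1.76 and -1.92), Slc27a3 (-1.73 in vehicle), Acsl1 (-1.73 in MDL-800 mice) and Fabp3, a fatty acid binding protein of muscle and heart (-2.35 and -2.42), were lower in NP. Fabp3 was 7.33 to 55.8 in AF vehicle and 1.86 to 11.1 in NP vehicle.

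In the carnitine shuttle, 3 of 6 other genes were lower in NP in vehicle mice and 2 in MDL-800 mice, led by Crat, carnitine acetyltransferase (-0.67 and -0.62), with Crot at -0.37 and -0.33. In mitochondrial oxidation, 1 of 15 was higher and 4 lower in vehicle mice, and 2 and 6 in MDL-800 mice. Decr1 differed by 0.65 and 0.44 and Mlycd, malonyl-CoA decarboxylase, by 0.39 in MDL-800 mice, against the flavoprotein subunit Etfb at -0.66 and -0.77 and the trifunctional protein subunit Hadha at -0.43 and -0.66. In the peroxisomal list, 5 of 11 were higher and 2 lower in vehicle mice, and 6 and 2 in MDL-800 mice. Its median difference was 0.35 and 0.33, beside -0.08 for all genes. With quantile normalization the median of all genes was 0.20 in vehicle mice, but the list median was not computed in that setting. Abcd3, a peroxisomal importer, differed by 0.63 in each arm and Scp2, a thiolase, by 0.49 and 0.51, while Acox3 was lower (-0.42 and -0.41). Among regulators, 2 of 14 were higher and 4 lower in vehicle mice, and 6 and 4 in MDL-800 mice. Prkaa2, a catalytic subunit of AMPK, differed by 1.31 and 1.12, Mbtps1, a protease that cleaves SREBP, by 0.23 in vehicle mice, and the liver X receptor Nr1h2 by 1.15 and Nfe2l1 by 0.94 in MDL-800 mice. Pparg, the master factor of fat cells, was 4.06 ± 0.629 in NP and 8.61 ± 1.49 in AF vehicle (SD, n = 5; -0.92 and -1.04), and Nr1h3 (-0.87 and -0.61) and Ppargc1b (-0.87 and -0.80) were also lower in NP.

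**Figure D4:**
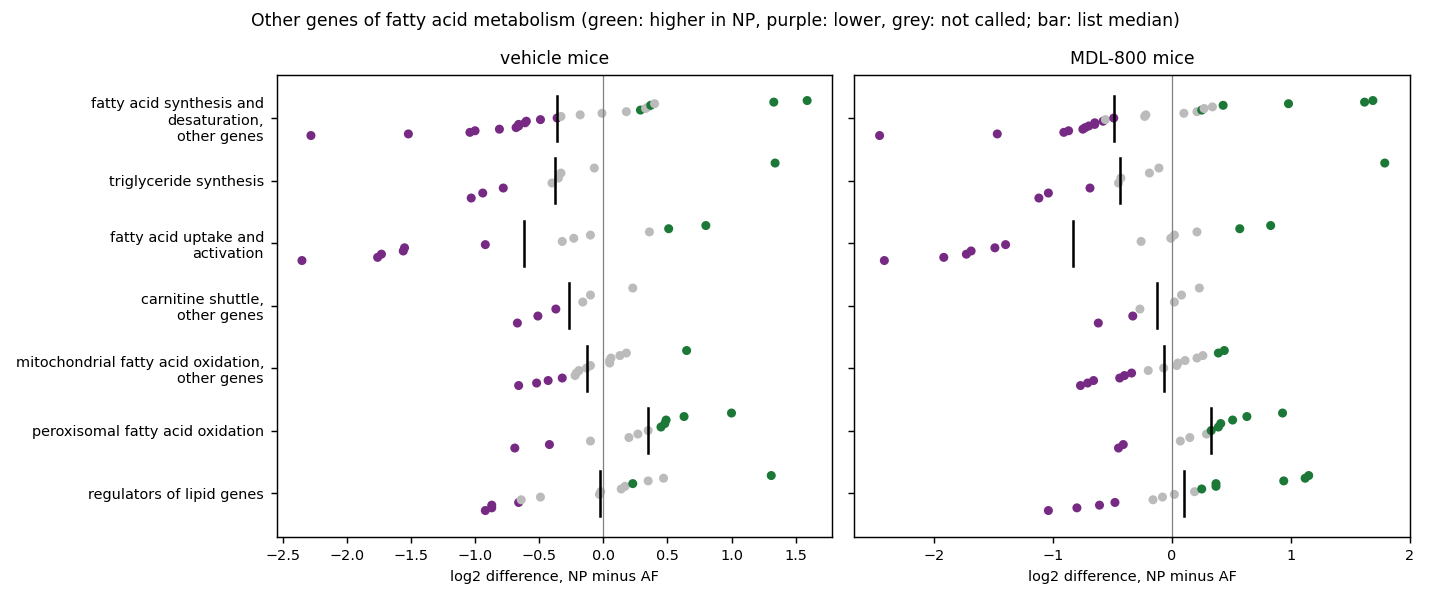
Log2 difference, NP minus AF, of each tested gene in 7 lists of fatty acid metabolism, in vehicle mice (left) and MDL-800 mice (right); green points were called higher in NP by limma, purple lower, grey not called, and black bars are list medians. The peroxisomal list has a median of 0.35 in vehicle and 0.33 in MDL-800 mice, and uptake and activation the lowest, -0.62 and -0.83.

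MDL-800 against vehicle asks whether 6 months of dosing changed these genes. In NP, 0 of 10 were called by limma, beside 0.250% of all genes tested (41 genes), and 1 of 10 had an unadjusted p below 0.05, beside 2311 of all 16383 genes. No member's groups were free of overlap, beside 4.50% of all genes. Fasn had the widest difference: NP MDL-800 libraries 15, 18, 19, 20 and 22 had 23.1, 29.7, 22.2, 21.7 and 22.6, above NP vehicle libraries 1, 2, 3 and 6 and, in 4 of 5 cases, above library 5 at 22.0. The mean was 23.9 ± 3.30 with MDL-800 and 15.6 ± 6.30 with vehicle (SD, n = 5). The difference was 0.67 (1.59-fold, 95% interval 0.11 to 1.23, limma adjusted p = 0.26, range over alternatives 0.158 to 0.524). It was 0.41 with the GC trend removed, and 0.23 without NP vehicle libraries 1 and 2, an omission chosen after seeing the data, on their GC slope and low Fasn values. GC slopes were -0.28 to -0.01 in NP vehicle and 0.02 to 0.09 in NP MDL-800 libraries, with no overlap between the groups.

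Srebf1 differed by 0.28 in NP (95% interval -0.13 to 0.68, limma adjusted p = 0.533), by -0.01 with the GC trend removed and by 0.03 without libraries 1 and 2. The other 8 members differed by -0.18 (Cpt2) to 0.19 (Scd1). The narrowest interval was that of Acly, -0.19 to 0.08, and that of Scd1 reached 0.65. The treatment and tissue comparisons share their vehicle or MDL-800 libraries, so the low NP vehicle libraries enter both.

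**Figure D5:**
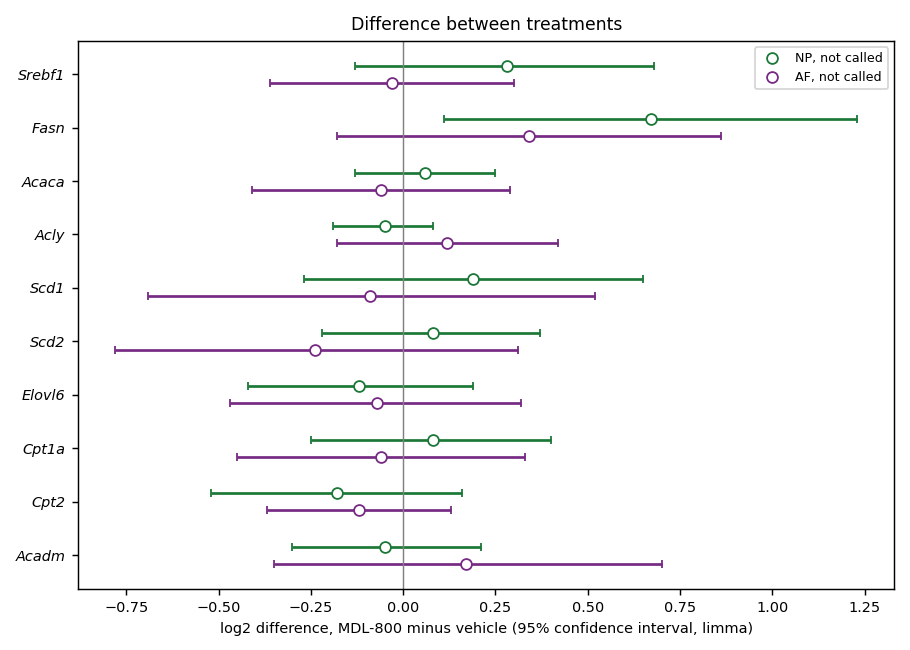
Log2 difference, MDL-800 minus vehicle, of each gene with its 95% confidence interval from limma, in NP (green) and AF (purple); open points were not called. Only the NP interval of Fasn, 0.11 to 1.23, lies wholly on one side of 0, and its adjusted p is 0.26.

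In AF, limma called 0 of 10 members and 0% of all genes, with 270 genes at an unadjusted p below 0.05 and none of the members among them, and groups did not overlap for 0 of 10 members, beside 0.226% of all genes. Fasn differed by 0.34 (95% interval -0.18 to 0.86), with AF MDL-800 libraries 25, 27, 28, 29 and 30 at 25.2, 18.5, 20.5, 39.2 and 21, of which library 29 was the highest. Library 29 also had the highest fat cell marker sum, 1130, and the part of the markers in its Fasn level was not tested. Without AF MDL-800 library 29, and likewise without AF vehicle library 12, the Fasn difference was 0.17. Scd2 differed by -0.24 (-0.78 to 0.31) and by -0.06 without AF vehicle library 10, Acadm by 0.17 (-0.35 to 0.70) and by 0.03 without AF vehicle library 8, and the other 7 by -0.12 to 0.12. The adjusted p was 1 for each member by limma. The difference of the MDL-800 effect between NP and AF was called for 0 of 10 members and 0% of genes (611 at an unadjusted p below 0.05, none a member). It was 0.33 for Fasn (95% interval -0.42 to 1.09) and 0.31 for both Srebf1 (-0.20 to 0.82) and Scd2 (-0.29 to 0.92).

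Of the 89 other genes of fatty acid metabolism, none was called for MDL-800 in NP, in AF or for the difference between them, by limma. In NP, 18 had an unadjusted p below 0.05, 1 in AF and 3 for the difference, beside 2311, 270 and 611 of the 16383 genes tested. Neither the ratio of Scd2 to Scd1 (log2 difference -0.11 in NP and -0.15 in AF) nor that of Cpt1a to Cpt2 (0.28 and 0.07) passed the exact permutation test between treatments (p = 0.4286, 0.7143, 0.1111 and 0.746). Without NP MDL-800 library 19 the ratio of Cpt1a to Cpt2 differed by 0.38 in NP (exact permutation p = 0.0476, not adjusted), an omission added after seeing the data.

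Within groups, members varied together to differing degrees. Deviations from the group means of log2 levels were correlated over 20 libraries, as a description that depth and base composition of the libraries also enter. Among member pairs Srebf1 and Fasn had r = 0.71, Acaca and Scd1 0.70, and Srebf1 and Scd2 0.68. The lowest were Acly with Acadm at -0.81 and Srebf1 with Cpt2 at -0.65. Among 10715 genes with a mean of at least 5 scaled FPKM, those most like Srebf1 were Fam219a (0.93) and Azin2 (0.86), and those most like Fasn were Zswim8 (0.92) and Ptk7 (0.91). For Scd1 they were Ghr (0.84), the growth hormone receptor, and Retn (0.81), the fat cell hormone resistin, which is also in the fat cell marker list. For Scd2 they were Ndrg1 (0.87) and Gm572 (0.87), for Acly Mcmbp (0.85) and Gart (0.85), and for Acaca Mtrr (0.88) and Pde4dip (0.87). For Acadm they were Ndufa12 (0.90), a subunit of respiratory complex I, and Gm44386 (0.89), for Cpt1a Dclre1a (0.90) and Kctd1 (0.85), for Elovl6 Hivep2 (0.84) and Plekhh2 (0.81), and for Cpt2 Lonp2 (0.76), a peroxisomal protease, and Tmem258 (0.75).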

How the data were processed

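The authors deposited 1 table of FPKM values for 51789 genes in 20 libraries, rounded to 2 decimals. Per the labels' protocols, libraries were stranded total RNA after ribosomal depletion, from 50 ng of RNA with 14 PCR cycles. Per the submitters' processing notes, STAR 2.7.11b and the mm10 build were used. The quantifier, annotation and strand setting of the counting are not given in the sources used here.

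Since FPKM hold no counts, tests were made on a log scale. Values were divided by median-ratio factors from 11308 genes at 1 FPKM or more in every library, filtered (1 FPKM in at least 5 libraries, 16383 genes), and tested as log2(scaled FPKM + 1) with limma 3.58.1 (eBayes with trend) in R 4.3.3, two-sided, on the 2 groups compared. The difference of the MDL-800 effects used all 4 groups. The fit was tested on simulated data with 200 changed genes. A log2 change of 1 was recovered for 81% of them for MDL-800 in NP and 68% in AF. A change of 0.5 was recovered for 29% and 2%. Between tissues, changes of 1 and 0.5 were recovered for 72% and 0% in vehicle and 70% and 12% in MDL-800 mice. In the data, 9127 and 10290 genes were called between tissues, so the adjusted threshold was less strict there than in the simulation. The simulated shares therefore do not measure what the tissue comparisons can detect, where Acly was called at -0.37 in vehicle mice. False calls numbered at most 15. Ratios used exact permutation tests and correlations permutation tests with 100000 resamples, computed with numpy 2.4.6. Gene positions, GC content and lengths came from GENCODE M21. Alternatives were another pseudocount, no filter, other scalings, robust and weighted fits, marker covariates, GC trend removal, all groups in the fit and omission of each library.

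The 10 members, the 7 pathway lists, the 8 lists of markers of other cells and the NP and AF marker lists were chosen with earlier results of these data known. All members are named. Of each pathway list up to 3 called genes per direction were named, by size of change, and Cpt1b, Cpt1c, Scd3, Scd4, Acadl, Acads and Acadvl always. Some genes of the peroxisomal list that this rule names are not reported here. For each member the 2 genes of highest r are given.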

Additional observations from a re-analysis of the deposited data

Results flagged for a closer look

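Dixon's test was applied to the 5 libraries of each of 40 gene and group combinations, and chance gives about 1 in 20. In 7, 1 library stood apart from the other 4. Fasn was 29.7 in NP MDL-800 library 18, the others 21.7 to 23.1. Scd1 was 249 in the same library, the others 133 to 165. Scd1 was 90.2 in NP vehicle library 1, the others 153 to 172. Elovl6 was 2.07 in AF vehicle library 9, the others 3.02 to 3.37, and this library had the highest NP marker sum of AF, 15200. Cpt1a was 11.7 in NP MDL-800 library 22, the others 8.21 to 9.12, and 26.0 in AF vehicle library 8, the others 14.5 to 16.8. Cpt2 was 12.4 in AF MDL-800 library 29, the others 10.4 to 11.0.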

How the results depend on the processing

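The number of members called was the same in every alternative of both MDL-800 comparisons and of their difference, 0 of 10. Between tissues it was 6 with each vehicle library left out and 5 to 7 with each MDL-800 library left out. With fat cell markers as a covariate, limma called 0 genes and 0 members in vehicle mice and 1438 genes and 2 members in MDL-800 mice. With skeletal muscle markers it called 5034 genes and 5 members in vehicle mice, and 5398 genes and 3 members in MDL-800 mice. The member call lost in vehicle mice with the muscle covariate was that of Scd1 (-0.37, limma adjusted p = 0.46). Both covariates differ between tissues themselves, so they take up part of the tissue difference by construction. With the fat covariate Scd1 was 1.29 in vehicle mice and Acadm 0.60 in MDL-800 mice, Acadm was 0.08 with the muscle covariate, and Cpt2 was 0.24 with quantile normalization, each opposite in sign to the reported value; the cause was not tested. Quantile normalization moved the median difference of all genes from -0.08 to 0.20. For MDL-800 against vehicle in NP, the 41 genes called became 7 with no filter, 18 without scaling, 70 with quantile normalization, 21 with TPM, 23 and 12 with the fat and muscle covariates, 4 with all groups in the fit and 11 without NP vehicle libraries 1 and 2 (added after seeing the data), and 2 to 189 with single libraries left out; the cause was not tested. Single omissions gave 8291 to 9138 genes between tissues in vehicle mice, 9572 to 10283 in MDL-800 mice, 0 to 1 for MDL-800 in AF and 0 to 1 for the difference. A change of sign was counted as a reversal only where the gene was called in either setting. Most columns of NP and AF libraries share a number whose meaning is not stated. Libraries sharing it deviated together with r of -0.18 to 0.29, not above 0.1 in every pair, and 2 of 8 libraries correlated best with their own number. With it as a replicate block, limma called 8783 genes and 6 members in vehicle mice. In MDL-800 mice it called 7857 genes and 5 members, without Acadm (-0.43, limma adjusted p = 0.13). There, NP libraries 15 and 18 and AF libraries 25 and 29 have no partner of the same number. They add nothing to the tissue difference in the blocked fit, so it rests on fewer libraries than in vehicle mice. At 5 libraries per group and these depths, intervals for MDL-800 in NP reached from -0.52 (Cpt2) to 1.23 (Fasn).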

Other observations

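Of the 89 tested genes of fatty acid metabolism, 8 were higher and 1 lower in NP MDL-800 than in NP vehicle with no overlap between groups, beside 4.50% of all genes in either direction, and none passed the adjusted threshold. The share of all genes in each direction is not given here, so the balance of 8 to 1 has no background to be read against. Of the 41 genes called in this comparison, 38 were higher and 3 lower. Of the 8, 2 are in the list of other synthesis and desaturation genes and 3 among the regulators. The 4 genes given here come from those lists and were chosen after their values were seen. Mid1ip1, a partner of acetyl-CoA carboxylase, was 4.34 to 11.2 in NP vehicle and 15.7 to 18.6 in NP MDL-800 libraries (difference 1.07, limma adjusted p = 0.0698). Scap, the SREBP escort, was 15.1 to 23.7 and 27.7 to 34.9 (0.64, limma adjusted p = 0.0743). Nfe2l1 was 113 to 191 and 211 to 251 (0.70, limma adjusted p = 0.0787), and Ppard, a nuclear receptor of fatty acids, 2.36 to 6.38 and 6.46 to 8.70 (0.80, limma adjusted p = 0.106). These 4 genes have 52.2% to 59.1% GC, above the median of 49.3% over tested genes, and the same groups do not overlap in GC slope. The GC content of the remaining genes without overlap is not given here. The part of GC slope in these differences was not tested.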
